A study of Homo sapiens with 6 samples.

Results

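Small nucleolar RNAs guide the cutting, folding and modification of ribosomal RNA, and the data below describe the entries named U3, U8, U13, U13_, U14 and U17 of a table of repeat RNA, with U7, the small nuclear RNA of histone messenger RNA processing. The members are defined by their row names, and the set was put together with earlier results of these data known. All 7 were present, among 15641 entries of the table, 14298 of them simple repeats listed by their repeating unit and the other 1343 repeat families and RNAs. The libraries hold chromatin-fraction RNA of the human embryonic stem cell line H9. There were 3 libraries of cells labelled naive, grown in RSeT medium, which is sold for naive-like culture, and 3 of cells labelled primed, the state of conventional embryonic stem cell culture. No transgene, drug or other treatment is named in the labels for either state. The labels repeat the RSeT growth text for all 6 libraries, so only the treatment label sets the primed libraries apart. They name no separate cultures either, so each p-value reads the scatter among these 6 libraries, and that scatter may be technical.

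In human cells most of these RNAs work in the nucleolus. U3 and U14 carry the sequence boxes called C and D, as do U8 and U13, while U17 belongs to the H/ACA class. U3, U14 and U17 are known for the early cuts that release the RNA of the small ribosomal subunit, U8 for processing of the large subunit RNAs, and U13 for guiding an acetylation of the small subunit RNA. U7 pairs with histone pre-mRNA downstream of its stem-loop and brings the enzyme that forms the histone mRNA end, in place of a poly(A) tail. The entry U13_ is a separate row, and the sources used here do not give its relation to U13.

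The RNAs themselves are short. The sequences shown are human reference transcripts of GENCODE release 29 (GRCh38), chosen because U17 carries the main change and U3, U14 and U7 are set against it. RefSeq synonyms (GRCh38.p14) link U17 to SNORA73A and SNORA73B, U3 to SNORD3A, SNORD3F and SNORD3P3, U14 to SNORD14A and SNORD14B, U8 to SNORD118, U13 to SNORD13 and U7 to RNU7-1. Capitals mark the ACA box of U17, the box C core TGATGA and the last CTGA (box D) of U3 and U14, and the core TTTGTCT of the Sm-type site of U7, all read on the transcript strand.
SNORA73A (U17): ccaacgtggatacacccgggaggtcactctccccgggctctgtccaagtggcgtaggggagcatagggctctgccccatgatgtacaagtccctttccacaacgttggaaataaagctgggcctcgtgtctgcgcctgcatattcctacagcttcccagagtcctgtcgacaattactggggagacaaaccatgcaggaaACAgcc
SNORA73B (U17): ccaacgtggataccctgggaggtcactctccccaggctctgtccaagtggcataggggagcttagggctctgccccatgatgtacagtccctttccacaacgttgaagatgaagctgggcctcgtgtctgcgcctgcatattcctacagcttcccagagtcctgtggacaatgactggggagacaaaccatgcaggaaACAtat
SNORD3A (U3): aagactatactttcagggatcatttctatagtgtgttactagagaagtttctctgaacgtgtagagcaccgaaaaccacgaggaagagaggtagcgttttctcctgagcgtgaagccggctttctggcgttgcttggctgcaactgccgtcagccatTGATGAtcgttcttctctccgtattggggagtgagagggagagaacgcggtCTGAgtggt
SNORD14A (U14): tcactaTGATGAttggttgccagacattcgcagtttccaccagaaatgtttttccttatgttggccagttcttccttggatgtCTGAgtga
RNU7-1 (U7): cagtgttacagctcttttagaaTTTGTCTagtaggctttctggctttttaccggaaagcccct

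The U17 genes SNORA73A (chr1:28507366-28507571, plus strand, 206 bases) and SNORA73B (chr1:28508559-28508762, plus strand, 204 bases) lie inside the genes RCC1 and SNHG3 on the same strand. SNORA73B is intronic in all 5 spanning RCC1 transcripts and both spanning SNHG3 transcripts, whereas 1 of 3 spanning SNHG3 transcripts has an exon over SNORA73A. They are 93.2% identical over 206 aligned positions, with a longest shared run of 54 bases, so reads within shared stretches fit either gene. The ACA of the H/ACA class stands 3 bases from the 3′ end in both, as it does in 1.65% of 197785 transcript starts of the length of SNORA73A and in 29.4% of 955 annotated small nucleolar RNA transcripts. SNORD3A (chr17:19188016-19188232, plus strand) holds TGATGA at positions 158 to 163 and its last CTGA at 209 to 212, counted from the 5′ end. SNORD14A (chr11:17074654-17074744, minus strand), inside introns of the ribosomal protein gene RPS13, has them at 7 to 12 and 84 to 87. TGATGA occurs in 7.75% of transcript starts of the length of SNORD3A and in 2.69% of those of the length of SNORD14A, and CTGA in 69.6% and 38.4% of them. RNU7-1 (chr12:6943816-6943878, plus strand, 63 bases) lies within C12orf57, with exons of 2 of 5 spanning transcripts over it and an antisense gene on the opposite strand. Its TTTGTCT, at positions 23 to 29, occurs in 0.539% of 206042 transcript starts of that length. GENCODE names 148 further RNU7 copies as pseudogenes. Each entry of the table sums all its copies and carries no coordinate, so counts from the gene, its host transcript and its pseudogenes cannot be told apart.

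Total counts ran from 9748202 to 17791046 in the naive libraries and from 118793 to 8106871 in the primed libraries, where library 2 was by far the shallowest. The centromeric alpha satellite entry, ALR/Alpha, took 25.3% to 42.9% of naive and 0.221% to 0.625% of primed counts. Each member is therefore given as CPM (its count scaled to the library total) and as CPM outside ALR/Alpha (scaled to all other counts). Across all 3219 tested entries the median log2 change, naive minus primed, was -0.61 with total counts as the only scaling and -0.0046 with TMM factors, which scale libraries by the trimmed mean of entry ratios. The ribosomal RNA share was 6.08%, 5.58% and 0.169% in naive and 17.7%, 4.04% and 8.01% in primed libraries, in order of their numbers, and naive library 3 stood apart. Protein-coding markers of the cell states have no row in the table. Of 5 pluripotency-linked repeats looked up in their place, 4 were called higher in naive libraries with TMM factors (edgeR; all but LTR7Y), beside 4.94% of all tested entries and 10.4% of those that are not simple repeats. HERVH-int and LTR7 were listed as known for pluripotent cells, and LTR5_Hs, HERVK-int and LTR7Y for naive and preimplantation states. LTR7Y, listed for the naive state, stood at 0.56 (edgeR adjusted p = 0.0686). With total counts as the only scaling 2 of the 5 were called higher, beside 0.87% of all tested entries, and LTR7Y lay below 0.

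U17 had the largest log2 change of the tested members, and it was lower in naive libraries. With counts scaled by TMM factors its log2 change was -1.62 ± 0.41 (SE; edgeR quasi-likelihood test, adjusted p = 0.0302 by Benjamini-Hochberg over 3219 entries). It was the 1 of 6 tested members called lower in naive libraries, against 7.77% of all tested entries and 1.19% of the 1265 tested entries that are not simple repeats. No member was called higher (0 of 6), against 4.94% of all tested entries and 10.4% of those that are not simple repeats. At an unadjusted p under 0.05 the same fit gave 2 of 6 members lower, U17 and U13, beside 18.3% of all tested entries, and 0 of 6 higher, beside 13.3%. DESeq2 called 0 of the 6 in either direction, and 114 lower and 95 higher among all 2087 entries it tested. The median over the 6 tested members was -0.35, beside -0.0046 over all tested entries. U8, with 59 counts over all 6 libraries, did not pass the filter on low counts.

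U17 had 108, 62.5 and 31.2 CPM in naive libraries 1 to 3, against 337, 143 and 392 in primed libraries 1 to 3. Every naive library lay below every primed library on that scale. Outside ALR/Alpha it had a CPM of 144.8, 109 and 47.6 in naive libraries and 338, 144.0 and 393 in primed libraries. There naive library 1 and primed library 2 stood at nearly the same level, so the groups overlapped. The value of primed library 2 rests on 17 counts, with an exact 95% binomial interval of 83.9 to 231 CPM outside ALR/Alpha. The other 2 primed libraries rest on 2424 and 3177 counts, with intervals of 324 to 352 and 380 to 407 CPM. Within the naive group U17 was lowest in library 3, the library with the smallest ribosomal RNA share, whose part in the result was not tested. Without that library the TMM change was -1.23 (edgeR adjusted p = 0.0193).

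The mean level of U17 was 67.3 ± 38.7 CPM for the naive libraries and 291 ± 131 for the primed ones (SD, n = 3 each), a ratio of 0.232. The means outside ALR/Alpha were 101 ± 49.2 for naive and 292 ± 131 for primed libraries, a ratio of 0.345. An exact two-sided permutation test gave p = 0.1 for CPM, the smallest p that 3 against 3 libraries can give, and p = 0.2 outside ALR/Alpha (adjusted over the 7 members 0.233 and 0.467). In the count model U17 changed by -2.20 ± 0.27 with total counts as the only scaling (edgeR adjusted p = 1.34e-13) and by -1.65 ± 0.29 with counts outside ALR/Alpha (edgeR adjusted p = 0.000581). In the fit to total counts edgeR set the spread of every entry to the common trend, so its p does not carry the wide spread of U17 between naive libraries. In the fit outside ALR/Alpha edgeR took the spread largely from that trend, so its p carries little of the spread of U17. With TMM factors edgeR drew on the trend as well, and more so in the fits that left out a naive library. The p-values of those fits therefore carry the spread of a single entry only in part.

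**Figure D1:**
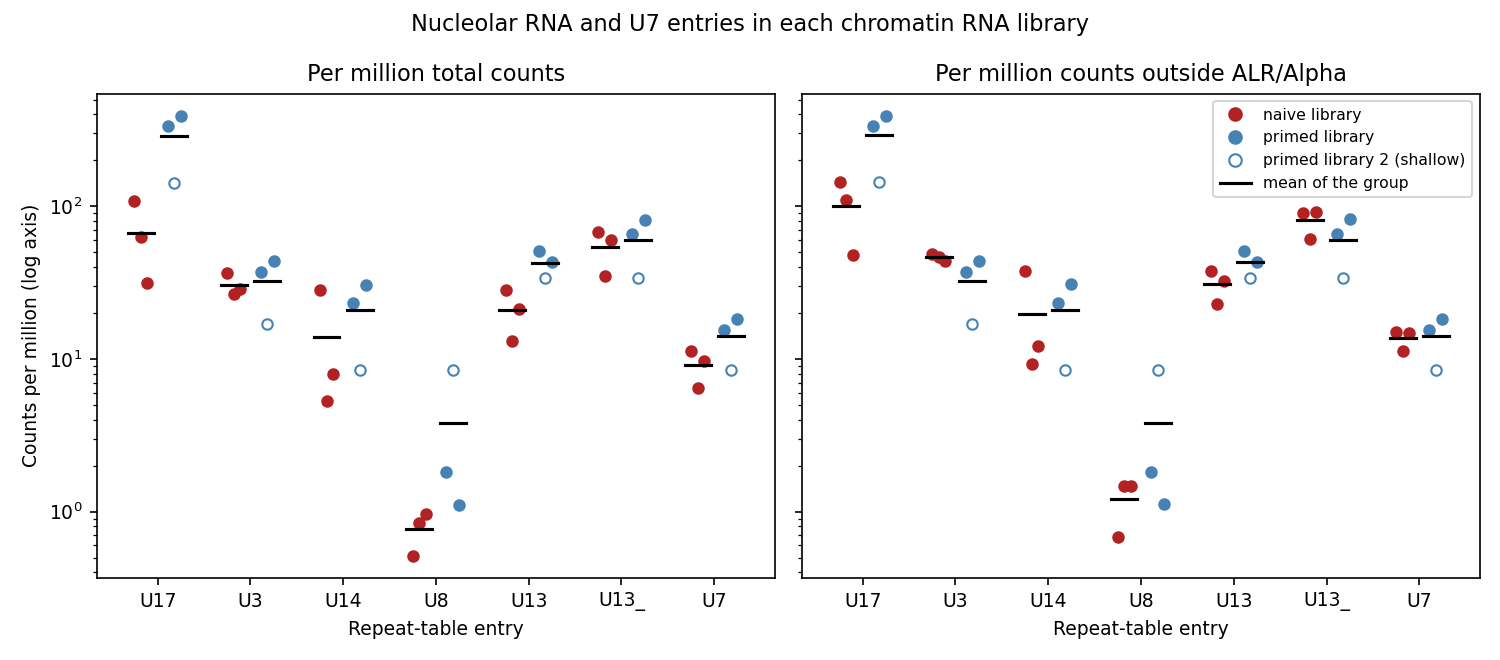
CPM of each entry on a log axis, of total counts on the left and of counts outside ALR/Alpha on the right; points are libraries, black lines group means, and the open point is the shallow primed library 2. The 3 naive points of U17 lie between 31.2 and 108 CPM, all below the primed points, while the points of U13_ overlap on both scales.

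The U17 call depended on which libraries and which tool were used. With TMM factors it was called in 4 of the 6 fits that left out 1 library. It was lost without primed library 1 (-1.48, edgeR adjusted p = 0.173) or primed library 3 (-1.43, 0.0711). These libraries hold nearly all primed U17 counts. Most other calls were also lost without primed library 1, where 15 of all 3472 tested entries were called. Without primed library 3 it was 430 of 3432, against 409 of 3219 with all libraries. With counts outside ALR/Alpha it was called in all 6 such fits, between -2.0 and -1.32, with a highest edgeR adjusted p of 0.000404. In those fits, too, edgeR took the spread largely or wholly from the common trend, so their p-values carry little of the spread of U17 itself. DESeq2 gave -1.53 with an adjusted p of 0.144. The direction was the same in each of these fits.

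**Figure D2:**
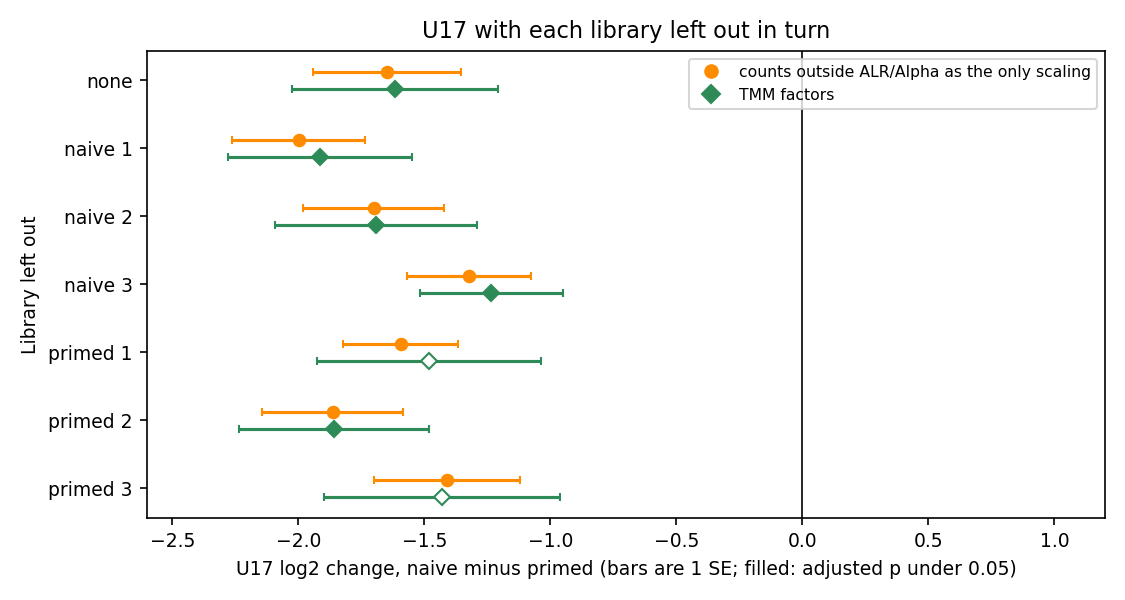
U17 log2 change, naive minus primed, with its standard error, for all libraries (top) and with each library left out in turn, under 2 scalings; filled symbols have an edgeR adjusted p under 0.05. All values lie below 0, and with TMM factors the symbols are open without primed library 1 and without primed library 3.

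U3 did not pass the test, and its direction depended on the scaling. It had 36.5, 26.5 and 28.9 CPM in naive libraries 1 to 3, against 37.0, 16.8 and 43.5 in primed libraries 1 to 3, and the groups overlapped. Outside ALR/Alpha it had a CPM of 48.9, 46.3 and 44.1 in naive libraries and 37.1, 16.9 and 43.7 in primed libraries. On that scale every naive value lay just above the highest primed value. Such a pattern was found in 11.3% of all tested entries, and U3 was the 1 of 7 members to show it. The edgeR log2 change was 0.26 ± 0.21 with TMM factors (adjusted p = 0.441), 0.27 ± 0.23 outside ALR/Alpha (0.506) and -0.31 ± 0.30 with total counts (0.412). Primed library 2 held 2 counts of U3, and 3 counts there already correspond to 25.3 CPM.

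U14 differed widely among the naive libraries. It had 28.2, 5.28 and 7.96 CPM in naive libraries 1 to 3, against 23.2, 8.42 and 30.7 in primed libraries 1 to 3. On that scale naive library 1, with 275 counts, stood in the range of the deep primed libraries, and the other naive libraries were far lower. Outside ALR/Alpha it had a CPM of 37.75, 9.25 and 12.15 in naive libraries and 23.3, 8.47 and 30.8 in primed libraries. There naive library 1 lay above every primed library, and the other naive libraries lay above primed library 2, which held 1 count. The log2 change of U14 was -0.42 ± 0.47 with TMM factors (edgeR adjusted p = 0.576), -0.41 ± 0.38 outside ALR/Alpha (0.538) and -0.90 ± 0.34 with total counts (0.0312). Without naive library 1 the TMM change became -1.25 ± 0.33 (edgeR adjusted p = 0.0147), so that library decides whether U14 is called. In that fit edgeR took the spread largely from the common trend, so its p carries little of the spread of U14. The call with total counts was lost without naive library 2 (-0.52, edgeR adjusted p = 0.303) or 3 (-0.61, 0.249), or primed library 1 (-0.99, 0.0853) or 3 (-0.62, 0.370). The 5 annotated U14 genes lie in RPS13 and in HSPA8, which codes for a constitutive heat-shock chaperone, and are 74.7% to 85.9% identical in pairs.

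U8 had few counts in every library. It had 5, 15 and 16 counts in naive libraries 1 to 3, against 13, 1 and 9 in primed libraries 1 to 3. As CPM this was 0.513, 0.843 and 0.958 in naive and 1.81, 8.42 and 1.11 in primed libraries, without overlap, but the highest primed value is a single count. Without a filter on low counts its log2 change was -0.38 ± 0.53 (edgeR adjusted p = 0.696). Outside ALR/Alpha, where it passed the filter, the change was -0.32 ± 0.53 (0.745), so U8 did not pass in either fit.

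U13 was called only with total counts as the scaling, and U13_ under none of the 3 scalings. U13 had 28.1, 13.04 and 21.4 CPM in naive libraries 1 to 3, against 51.2, 33.7 and 43.3 in primed libraries 1 to 3. The naive libraries all lay below the primed ones. Outside ALR/Alpha U13 had a CPM of 37.6, 22.8 and 32.6 in naive and 51.3, 33.9 and 43.4 in primed libraries, where naive library 1 overlapped primed library 2, which rests on 4 counts. The log2 change of U13 was -1.14 ± 0.31 with total counts (edgeR adjusted p = 0.00166), but -0.60 ± 0.23 with TMM factors (0.10) and -0.58 ± 0.24 outside ALR/Alpha (0.119), and neither of these passed. Single libraries moved these calls: without naive library 1 the TMM change was -0.73 (edgeR adjusted p = 0.0448), and without primed library 1 the change with total counts was -0.997 (0.0578). In both fits edgeR took the spread largely or wholly from the common trend.

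U13_ had 67.9, 34.8 and 59.9 CPM in naive libraries 1 to 3, against 65.6, 33.7 and 81.8 in primed libraries 1 to 3, and the groups overlapped. Its log2 change was 0.20 ± 0.21 with TMM factors (edgeR adjusted p = 0.553) and -0.34 ± 0.28 with total counts (0.331). The count of U13 divided by that of U13_ in the same library was 0.414, 0.374 and 0.357 in naive libraries and 0.780, 1.0 and 0.529 in primed libraries. These groups did not overlap, with a log2 difference of -0.97 (exact two-sided permutation p = 0.1, the smallest possible). Of the other 3218 tested entries, 25.5% were likewise lower and 0.622% higher in all naive libraries against U13_. The pair was chosen after its values were seen, and the sources used here do not say how reads that fit both were counted.

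U7, the histone-processing RNA, had 11.3, 6.41 and 9.76 CPM in naive libraries 1 to 3, against 15.4, 8.42 and 18.3 in primed libraries 1 to 3. The groups overlapped through primed library 2, which held 1 count of U7. Outside ALR/Alpha the naive values were 15.1, 11.2 and 14.9 and the primed values 15.5, 8.47 and 18.3, and the means were 13.7 ± 2.18 for naive libraries and 14.1 ± 5.06 for primed ones (SD, n = 3 each). The log2 change was -0.28 ± 0.26 with TMM factors (edgeR adjusted p = 0.493), -0.26 ± 0.30 outside ALR/Alpha (0.624) and -0.84 ± 0.38 with total counts (0.0741).

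Read across the members, the number called rested on the denominator. With total counts as the only scaling 3 of the 6 tested members were called lower, U17, U13 and U14, beside 32.6% of all tested entries, and 0 were called higher (0.87% of all). With counts outside ALR/Alpha 1 of 7 was called lower, U17, against 10.1% of all tested entries, and 0 higher against 3.72%. In CPM the groups did not overlap, with naive lower, for 3 of 7 members (U17, U13 and U8), beside 34.3% of all tested entries. U8 was not among those tested entries, and its highest primed value is a single count. With naive higher it was 0 of 7 members, beside 1.68%. Outside ALR/Alpha 0 of 7 members were lower in all naive libraries, beside 12.8%. Summed over the 7 entries, the CPM was 281, 149 and 160 in the naive and 531, 253 and 611 in the primed libraries, by number. Of this sum U17 held 38.5%, 41.8% and 19.5% in naive libraries 1 to 3, against 63.4%, 56.7% and 64.2% in primed libraries 1 to 3. These are parts of one sum, so the shares of the other members move with that of U17. Fewer of these RNAs per cell and more of other RNA on chromatin cannot be told apart in such shares.

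**Figure D3:**
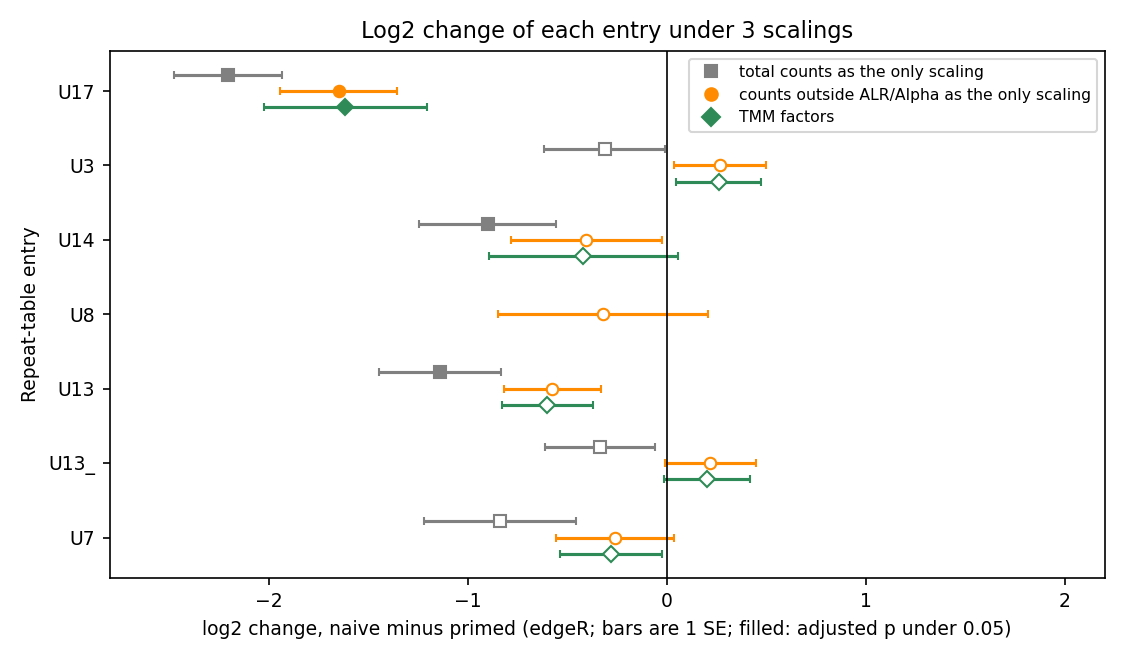
Log2 change, naive minus primed, of each entry with 1 standard error under 3 scalings (edgeR); filled symbols have an adjusted p under 0.05. U17 is filled under each scaling, between -2.20 and -1.62, U13 and U14 only with total counts, and U3 and U13_ lie left of 0 with total counts and right of 0 otherwise; U8 was tested only outside ALR/Alpha.

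Ratios of counts within a library do not depend on its total or on ALR/Alpha. The count of U17 divided by that of U3 was 2.96, 2.36 and 1.08 in naive libraries 1 to 3, against 9.11, 8.50 and 9.0 in primed libraries 1 to 3. The primed ratios lay close together and far above all naive ratios, although that of primed library 2 rests on 17 and 2 counts. The log2 difference was -2.08, with log2 means of 0.97 ± 0.76 for naive libraries and 3.05 ± 0.21 for primed ones (SD, n = 3 each; exact two-sided permutation p = 0.1, the smallest possible, adjusted p = 0.2 over 6 ratios). U13 to U3 (-1.05) and U7 to U3 (-0.68) were also lower in all naive libraries, with the same p. This held for 3 of 6 ratios to U3, and for 32.1% of the other 3218 tested entries, while 0 of 6 were higher in all naive libraries, against 0.559%. U13_ to U3 differed by -0.08 (exact permutation p = 0.9) and U14 to U3 by -0.88 (exact permutation p = 0.4).

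**Figure D4:**
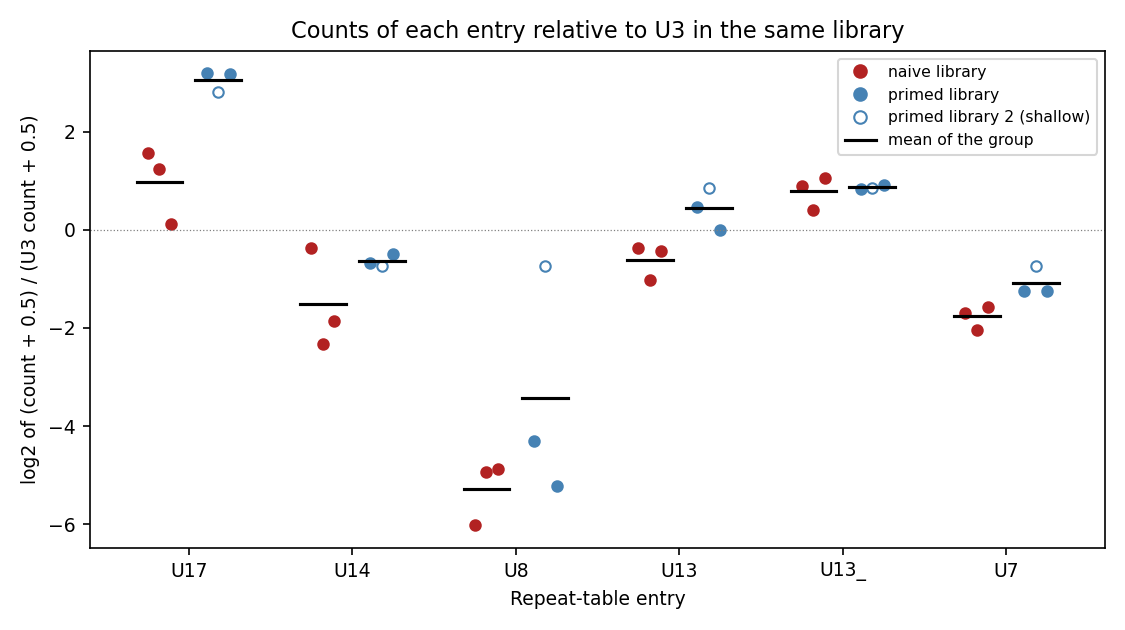
Log2 of the count of each entry over the count of U3 in the same library, with 0.5 added to both counts; points are libraries, black lines group means, and the open point is the shallow primed library 2. For U17 the naive points lie between 0.11 and 1.57 and the primed points between 2.81 and 3.19, while for U13_ the groups overlap.

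Against the summed spliceosomal RNAs U1, U2, U4, U5 and U6 the picture was weaker. That sum includes U4, which was itself called lower in naive libraries with TMM factors (-1.68, edgeR adjusted p = 0.0462). The other entries of the sum were not called, from -0.31 for U2, its largest part, to 0.08 for U6. The part of the sum's own change in these ratios was not tested. U17 divided by that sum was 0.183, 0.113 and 0.0587 in naive libraries 1 to 3, against 0.285, 0.152 and 0.334 in primed libraries 1 to 3, with overlap through primed library 2 (log2 difference -1.20, exact permutation p = 0.2). U3 divided by that sum was 0.0617, 0.0478 and 0.0544 in naive libraries and 0.0313, 0.0179 and 0.0371 in primed libraries. Here all naive libraries lay above the primed ones (log2 difference 0.88, exact permutation p = 0.1), as in 14.2% of the tested entries. No member was lower in all naive libraries (0 of 7, against 5.97%).

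Among the other structural RNAs, 1 of 6 spliceosomal and 7SK entries was called lower with TMM factors and 0 higher. Of all tested entries 7.77% were called lower and 4.94% higher. Of those that are not simple repeats, 1.19% were called lower and 10.4% higher. The called spliceosomal entry was U4, an RNA that pairs with U6, at -1.68 ± 0.49 (edgeR adjusted p = 0.0462). U4 had 78.8, 42.4 and 35.6 CPM outside ALR/Alpha in naive libraries 1 to 3, against 256, 8.47 and 129 in primed libraries 1 to 3, so the groups overlapped. Its call was lost without naive library 2 or 3 or primed library 1 or 3, with edgeR adjusted p between 0.0543 and 0.395. Without primed library 1, only 15 of all 3472 tested entries were called. The 3 ribosomal RNA entries had 0 called with TMM factors by edgeR (0 also at an unadjusted p under 0.05). Their log2 changes were -0.72 ± 0.91 for LSU-rRNA_Hsa, -0.57 ± 0.92 for SSU-rRNA_Hsa and 0.12 ± 0.14 for 5S. With standard errors that wide, the fit says little about the first 2. With total counts 4 of the 6 spliceosomal and 7SK entries and 2 of the 3 ribosomal entries were called lower, beside 32.6% of all tested entries.

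The profile of U17 over the 6 libraries was most like those of MER57E3 (Pearson r = 0.970), SATR2 (0.951) and MER70-int (0.934) among 1143 repeat entries outside the set. None of these 3 was called (edgeR adjusted p = 0.101, 0.215 and 0.122), and their log2 changes lay between -0.40 and -0.30. For the other tested members the closest entry was UCON58 for U3 (r = 0.996), Charlie22a for U13_ (0.994), AluYd8 for U13 (0.992), PRIMAX-int for U7 (0.990) and MER105 for U14 (0.981). Each r rests on 6 libraries. In CPM scaled by TMM factors, U3, U13_, U14 and U7 were lowest in the shallow primed library 2, which holds few counts of them. U17 was lowest in naive library 3 (36.6, against 95.1 in primed library 2) and U13 in naive library 2.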

How the data were processed

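The libraries hold RNA of the chromatin fraction, extracted on RNeasy columns and made into directional libraries, per the labels' protocols. Such columns keep very short RNAs poorly, so levels are those of the libraries. Per the submitters' processing notes, Trimmomatic 0.39, STAR 2.7.8a, featureCounts and Subread 2.14.2 are named. The genome build, repeat annotation, strand setting and treatment of reads with several positions are not stated in the sources at hand. The authors deposited raw counts per repeat name, whole numbers without normalisation.

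Columns were matched to samples by title and groups taken from the treatment label. All entries were fitted with edgeR 4.0.16 in R 4.3.3 (filterByExpr, TMM factors, quasi-likelihood test of naive minus primed, Benjamini-Hochberg adjusted p under 0.05). The standard error is the log2 change divided by the square root of F. Library-level values were compared by exact two-sided permutation tests (scipy 1.17.1), and intervals are exact 95% binomial ones. Intervals and the limit of 3 counts cover counting error only. Counts of libraries of a group differed by more than sampling noise, so no pair was treated as one library deposited more than once; this does not tell technical from biological repeats. The members, lists and tests were chosen with earlier results of these data known. The entries named are all 7 members, called entries of the spliceosomal, 7SK and ribosomal lists, and the closest profiles (mean count of at least 50, log2 CPM with a prior count of 2). On simulated counts drawn from these libraries' means, the test called 50.0% of the 2-fold changes and 91.7% of the 4-fold ones among 3088 entries. Of its 147 calls 2.04% were false. Each simulated entry was given the spread of the common trend and not its own, so these rates need not hold for single entries such as U17 or U4. Alternatives were other scaling factors, DESeq2 1.42.0, other filters, other entries fitted, thinning, the replicate number as a block, other denominators and each library left out in turn; those that left out a library under total counts or outside ALR/Alpha, and U13_ as a denominator, were chosen after seeing the data. Sequences were compared with Biopython 1.88 and figures drawn with matplotlib 3.10.9.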

Additional observations from a re-analysis of the deposited data

How the results depend on the processing

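U17 kept its direction under each alternative tried. Its call was lost with simple repeats left out (-1.88, edgeR adjusted p = 0.0532), with thinning to the shallowest library (-1.60, 0.262) and by DESeq2 (-1.53, 0.144). Those settings called 48 of 1265, 2 of 716 and 209 of 2087 tested entries in that order, against 409 of 3219 in the main fit. The cause of the lost calls was not tested. U13 and U14 passed with library size only (-1.14 and -0.90), under which U3 and U13_ turned below 0 (-0.31 and -0.34), as U13_ did with simple repeats left out (-0.040). With 1 library left out, over the 3 scalings, the log2 changes ran from -2.72 to -1.23 for U17, -1.41 to -0.38 for U13, -1.94 to -0.058 for U14, -1.01 to -0.11 for U7, -0.46 to 0.43 for U3 and -0.53 to 0.43 for U13_. The lower ends are those with library size only and without naive library 1, where U7 also passed (edgeR adjusted p = 0.0473). The U3 difference in CPM was -1.82 of the total, 13.9 outside ALR/Alpha and 12.9 when ribosomal RNA was also left out, and -9.63 to 3.73 without 1 library. That of U13_ was -6.13, 20.6 and 17.9, and -19.5 to 4.58. With the spliceosomal sum in place of U3, the log2 ratios of U13_ (0.80) and U7 (0.20) turned above 0, and that of U13_ to U3 ran from -0.22 to 0.11 without 1 library. U8 could not be tested after the filter on low counts with TMM factors.

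Over all entries 409 were called, 159 higher and 250 lower (38.9% higher). Library size only gave 1079 (2.59% higher), upper-quartile factors 447 (23.3%) and outside ALR/Alpha 462 (26.8%). DESeq2 gave 209 of 2087 tested entries, no filter 860 of 10175, simple repeats left out 48 of 1265 and thinning 2 of 716. Leaving out 1 library gave the fewest calls, 15 of 3472, with TMM factors and without primed library 1. The most, 1304 of 3495, came with library size only and without naive library 1. With library size only and without primed library 1 there were 402 of 3472. With the replicate number as a block 638 were called and U17 gave -1.70 (edgeR adjusted p = 4.23e-21), with the spread taken from the common trend. Same-numbered libraries deviated together with r of 0.146, 0.0867 and 0.0659, and each library correlated best with its own number, a hint from the data and not from the design. No other member was called under the block. Primed library 2 is limited by its depth, with 1 to 17 counts per member.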
